A study of Homo sapiens and Mus musculus with 16 samples.

Results

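PRAF2, CCDC120 and TFE3 lie with 7 neighbours, PQBP1, SLC35A2, PIM2, OTUD5, GRIPAP1, WDR45 and GPKOW, in one stretch of the X chromosome that human and mouse share. These 10 genes were chosen because they sit side by side and because several of them were far lower in PD-L1 knockout than in wild type cells of these data. The knockout against wild type differences of both lines thus chose the genes, and they are given below as a description, with no test. All 10 were found by symbol in each line, among 58713 genes in the human table and 53796 in the mouse table. All 10 also passed the filter on low values, which left 14450 and 11342 genes, but CCDC120 in the human line and Praf2 in the mouse line passed through their wild type libraries alone.

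RNA was sequenced from cultured MDA-MB-231 cells, which derive from a human breast cancer without hormone receptors, and from cultured CT26 cells, which derive from a mouse colon tumour. Each line had 4 libraries of PD-L1 wild type cells and 4 of cells whose PD-L1 gene had been disrupted by CRISPR delivered with a lentivirus. The cells grew in medium with serum, and the labels name no other treatment. None of the sources used here states whether the edited cells were 1 clone or a mixture, what the wild type cells had received, or whether a group's libraries are separate cultures. P-values therefore measure only the spread between libraries, and that spread may be technical. Levels are in FPKM, which divides the fragments of a gene by its transcript length and by the library's mapped fragments.

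The 10 genes serve different parts of the cell. TFE3 is a transcription factor of the MiT/TFE family, which enters the nucleus when lysosomes are stressed or nutrients are short and switches on lysosomal and autophagy genes. WDR45 acts in autophagosome formation, PRAF2 and GRIPAP1 in membrane traffic, SLC35A2 carries UDP-galactose into the Golgi, PQBP1 and GPKOW belong to the splicing machinery, OTUD5 removes ubiquitin, PIM2 is a survival kinase and CCDC120 is a coiled-coil protein of the centrosome. The X chromosome is present in one active copy per cell in males, and in females one copy is largely silenced.

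In the deposited human table the block ran from 48893447 to 49123801 on chromosome X (hg38), a span of 230.4 kb, and in the mouse table from 7697131 to 7899269 on chromosome X (mm10), a span of 202.1 kb. The order is turned around between the species, PQBP1 to GPKOW in human and Gpkow to Pqbp1 in mouse. In GENCODE 29 all 10 human genes are protein-coding, 8 on the minus strand and 2, PQBP1 and CCDC120, on the plus strand. CCDC120 and PRAF2 are transcribed towards each other, and their ends lie 1298 bases apart. PRAF2 and WDR45 overlap by 2602 bases on the same strand, and the tables give both the same locus, so the split of reads between them is uncertain. PQBP1 shares its locus in the human table with TIMM17B in the same way.

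The promoters of the 3 leading genes are printed to show the letters at their start sites. Each is the 250 bases before the first RefSeq start on GRCh38.p14, read 5′ to 3′ on the gene's own strand, with capitals at CACGTG in PRAF2 and at GGGCGG or its reverse complement in CCDC120 and TFE3.
PRAF2, chrX:49074003-49074252, minus strand: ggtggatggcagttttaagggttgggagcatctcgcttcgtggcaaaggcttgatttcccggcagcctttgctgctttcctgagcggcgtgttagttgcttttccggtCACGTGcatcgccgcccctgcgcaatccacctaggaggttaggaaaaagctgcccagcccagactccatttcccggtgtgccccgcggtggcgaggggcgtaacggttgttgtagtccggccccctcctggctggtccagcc
CCDC120, chrX:49053322-49053571, plus strand: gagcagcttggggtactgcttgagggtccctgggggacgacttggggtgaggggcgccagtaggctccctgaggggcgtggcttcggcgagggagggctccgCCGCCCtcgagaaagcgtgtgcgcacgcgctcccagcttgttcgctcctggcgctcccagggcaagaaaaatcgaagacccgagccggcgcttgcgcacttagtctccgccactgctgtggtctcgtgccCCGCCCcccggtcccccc
TFE3, chrX:49043358-49043607, minus strand: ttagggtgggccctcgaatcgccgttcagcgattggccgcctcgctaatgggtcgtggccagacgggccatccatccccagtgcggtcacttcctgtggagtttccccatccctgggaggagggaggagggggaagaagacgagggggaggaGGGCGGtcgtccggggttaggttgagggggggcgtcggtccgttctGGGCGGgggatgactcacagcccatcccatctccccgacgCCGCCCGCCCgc

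CACGTG is an E-box, a palindrome of the kind that MiT/TFE and MYC proteins bind, and in PRAF2 it lies 142 bases before the start. The RefSeq table held 14 such windows for 9 block genes, all but GPKOW, since some genes have several starts. CACGTG was in 1 of these 14, that of PRAF2, and in 6.34% of all 35116 RefSeq promoter windows of that length. GGGCGG, the GC box, was in 8 of the 14, from 8 genes, and in 42.6% of all windows, with every motif searched on both strands. TFE3 had 4 GC boxes, of which those nearest the start overlap each other. CCAAT was in 8 of the 14 windows, from 7 genes, against 32.0% of all windows, CCGGAAG in 2 against 8.52%, and TATAAA in 0 against 10.7%. These matches describe letters and are no evidence of binding.

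In every one of the 10 genes, and in both lines, the knockout mean was below the wild type mean. In MDA-MB-231 the median gene of the block stood at 70.9% of its wild type level and in CT26 at 48.4%, with ranges over the 10 from 0 to 96.4% and from 1.26% to 60.0%. In MDA-MB-231 8 of the 10 had every knockout library below every wild type library, the exceptions being OTUD5 and WDR45. Of all genes tested in that line, 23.6% had this pattern. In CT26 it held for 10 of 10, where the pattern was seen in 31.1% of all genes tested. Because the genes were picked on this contrast, nothing is read from these counts. In bulk RNA, fewer cells expressing a gene and less RNA per cell cannot be told apart.

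**Figure D1:**
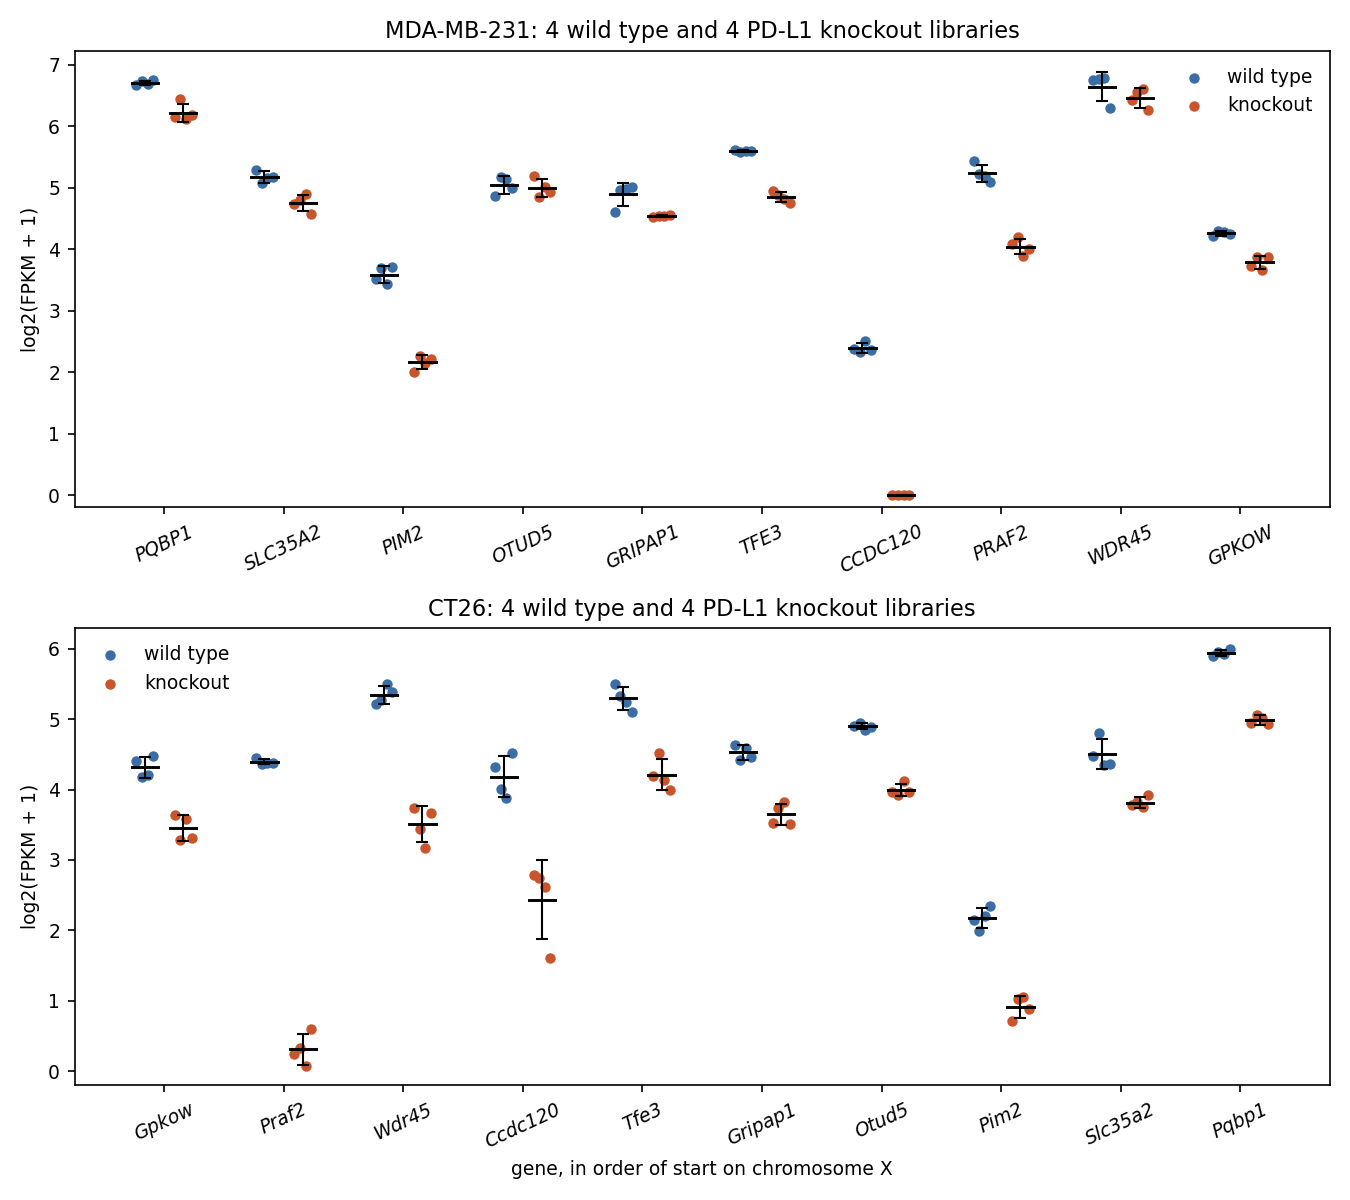
FPKM of each of the 10 genes in every library, on a log scale, in the order of their starts on chromosome X, for MDA-MB-231 and CT26. Points are single libraries, 4 wild type and 4 knockout per line; CCDC120, listed at 0 in the 4 MDA-MB-231 knockout libraries, and Praf2, at 0.0505 to 0.514 in the CT26 knockout, stand apart from the rest.

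PRAF2 encodes a small membrane protein of the prenylated Rab acceptor family, found in the endoplasmic reticulum and Golgi. In CT26 its wild type libraries read 20.8, 19.6, 19.9 and 19.9 FPKM, and the knockout libraries 0.184, 0.258, 0.0505 and 0.514. The group means were 20.03 ± 0.502 and 0.252 ± 0.195 FPKM (SD, n = 4 each), a ratio of 79.6. Without knockout replicate 4, the highest, the ratio was 122, and without knockout replicate 3 it was 62.8, so its size rests on values near 0. All 4 knockout libraries were near 0 and none came within reach of the wild type range. The difference on the log2(FPKM + 1) scale was -4.08, the 3rd lowest of the 11342 genes tested, and the pseudocount of 1 holds it down: with 0.1 it was -6.01.

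In MDA-MB-231, PRAF2 was lower but far from lost. Wild type libraries read 42.1, 36.1, 35.6 and 33.3 FPKM and the knockout libraries 15.9, 17.3, 13.9 and 15.0. The means of 36.8 ± 3.74 and 15.5 ± 1.47 FPKM left 42.2% of the wild type level, and the log2 difference was -1.19. The groups did not overlap.

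CCDC120 was the gene of the block listed at 0 in a whole group. It stood at 0 FPKM in all 4 MDA-MB-231 knockout libraries, against 4.18, 4.02, 4.69 and 4.14 FPKM in the wild type (4.26 ± 0.297, n = 4). An exact 0 in these tables can be a failed estimate, although the authors' status for this gene marks none, so no ratio is given, and its plotted log2 difference of -2.39 is set by the pseudocount. The knockout libraries of this line were also the shallower ones, at 0.509 to 0.779 of the depth of wild type replicate 1, and the part of depth in this zero was not tested. In CT26, Ccdc120 stayed measurable, at 19.1, 15.0, 13.8 and 21.9 FPKM in the wild type and 5.88, 5.71, 5.14 and 2.04 in the knockout. The means were 17.4 ± 3.74 and 4.69 ± 1.80 FPKM, or 26.9% of wild type, with knockout replicate 4 the lowest.

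TFE3, the transcription factor of the block, was lower in both lines, and its wild type scatter was small in MDA-MB-231 and larger in CT26. The MDA-MB-231 wild type lay at 47.8, 46.7, 47.4 and 47.3 FPKM and the knockout libraries at 29.7, 28.5, 27.1 and 25.8. The means were 47.3 ± 0.420 and 27.8 ± 1.68 FPKM, leaving 58.7%. In CT26 the wild type libraries read 44.5, 39.0, 37.0 and 33.4 FPKM and the knockout libraries 17.3, 22.0, 16.6 and 15.0, with means of 38.5 ± 4.61 and 17.7 ± 3.003 FPKM, or 46.0%. In neither line did the groups overlap.

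PIM2, a constitutively active serine/threonine kinase, read 10.5, 12.0, 9.75 and 12.0 FPKM in the MDA-MB-231 wild type and 3.003, 3.80, 3.45 and 3.64 in the knockout, which is 31.4% of the wild type mean. In CT26 it was the lowest of the 10 genes in the wild type, at 3.43, 2.99, 3.60 and 4.08 FPKM, and stood at 0.634, 1.04, 1.07 and 0.839 in the knockout, or 25.4%. In neither line did the groups overlap.

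WDR45, also called WIPI4, binds phosphoinositides on the growing autophagosome. In CT26 its wild type libraries read 36.2, 37.7, 44.4 and 40.8 FPKM and its knockout libraries 12.4, 9.82, 8.03 and 11.8, a mean of 26.4% of wild type. In MDA-MB-231 the wild type read 106, 107, 109 and 77.1 FPKM and the knockout 84.7, 92.5, 96.5 and 75.4, or 87.3%. Wild type replicate 4 lay inside the knockout range, so the groups overlapped there. Since WDR45 and PRAF2 share a locus in both tables, the level of each carries the uncertainty of the other.

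The splicing factors PQBP1 and GPKOW were at 71.4% and 70.5% of wild type in MDA-MB-231 and at 50.9% and 52.7% in CT26. PQBP1, with WDR45 one of the 2 genes of the block with the highest mean per length in either wild type, went from 103 ± 2.67 to 73.8 ± 7.93 FPKM in MDA-MB-231 and from 60.4 ± 1.82 to 30.7 ± 1.46 FPKM in CT26. For GPKOW the means were 18.2 ± 0.527 and 12.8 ± 0.997 FPKM in the human line, and 19.0 ± 2.08 and 10.04 ± 1.39 in the mouse line. In neither gene did the groups overlap in either line.

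SLC35A2, the UDP-galactose transporter, stood at 74.0% of wild type in MDA-MB-231 (35.1 ± 2.27 to 26.0 ± 2.48 FPKM) and at 60.0% in CT26 (21.8 ± 3.55 to 13.1 ± 0.738 FPKM). GRIPAP1, a protein of recycling endosomes, stood at 77.1% and 52.4%. Its MDA-MB-231 wild type held 1 low library, replicate 1 at 23.3 FPKM, close above the highest knockout library at 22.6, while the other 3 lay between 30.1 and 31.3. OTUD5, a deubiquitinase that restrains interferon production, had values close to wild type in the human line alone, a difference between lines that was not tested. In MDA-MB-231 it read 28.0, 35.3, 34.3 and 31.0 FPKM in the wild type and 35.5, 27.7, 31.2 and 29.6 in the knockout, so the groups lay over each other at 96.4% of wild type. In CT26 it read 28.995, 29.9, 27.8 and 28.7 FPKM against 14.6, 14.2, 16.4 and 14.7, at 52.0% with no overlap.

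In the wild type, the order of levels per length in MDA-MB-231 was PQBP1, WDR45, TFE3, PRAF2, SLC35A2, OTUD5, GRIPAP1, GPKOW, PIM2 and CCDC120. The ranges of PQBP1 and WDR45 overlapped, and without wild type replicate 4 the mean of WDR45 was 108 FPKM, above that of PQBP1, as did those of each pair of neighbours from PRAF2 to GRIPAP1. In CT26 the order was Pqbp1, Wdr45, Tfe3, Otud5, Gripap1, Slc35a2, Praf2, Gpkow, Ccdc120 and Pim2, with overlaps between Wdr45 and Tfe3 and between each pair of neighbours from Gripap1 to Ccdc120. For PRAF2 the rank was 4 in the wild type against 7 in the knockout of the human line, and 7 against 10 in the mouse line. The tables were normalized separately, so no level was compared between lines.

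The genes around the block were not used in choosing it, although it was chosen with their region known, and they were tested. Of the 18 tested genes within 1 Mb on either side in MDA-MB-231, 17 fell in the knockout and 0 rose (limma, adjusted p below 0.05), where 25.7% of all tested genes fell and 42.6% rose. In CT26 15 of 16 fell and 0 rose, where 33.5% of all tested genes fell and 22.3% rose. Among those counted as lower, SLC38A5 and MAGIX in MDA-MB-231 and Usp27x in CT26 passed the filter through their wild type libraries alone. That favours a call as lower, so nothing is read from the calls of these genes. The median log2 difference of these flanking genes was -0.80 in MDA-MB-231 and -0.998 in CT26, beside medians of 0.18 and -0.06 over all genes tested. The 10 block genes had medians of -0.48 and -1.02. Relative to the median of all genes, that is -0.66 and -0.96.

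**Figure D2:**
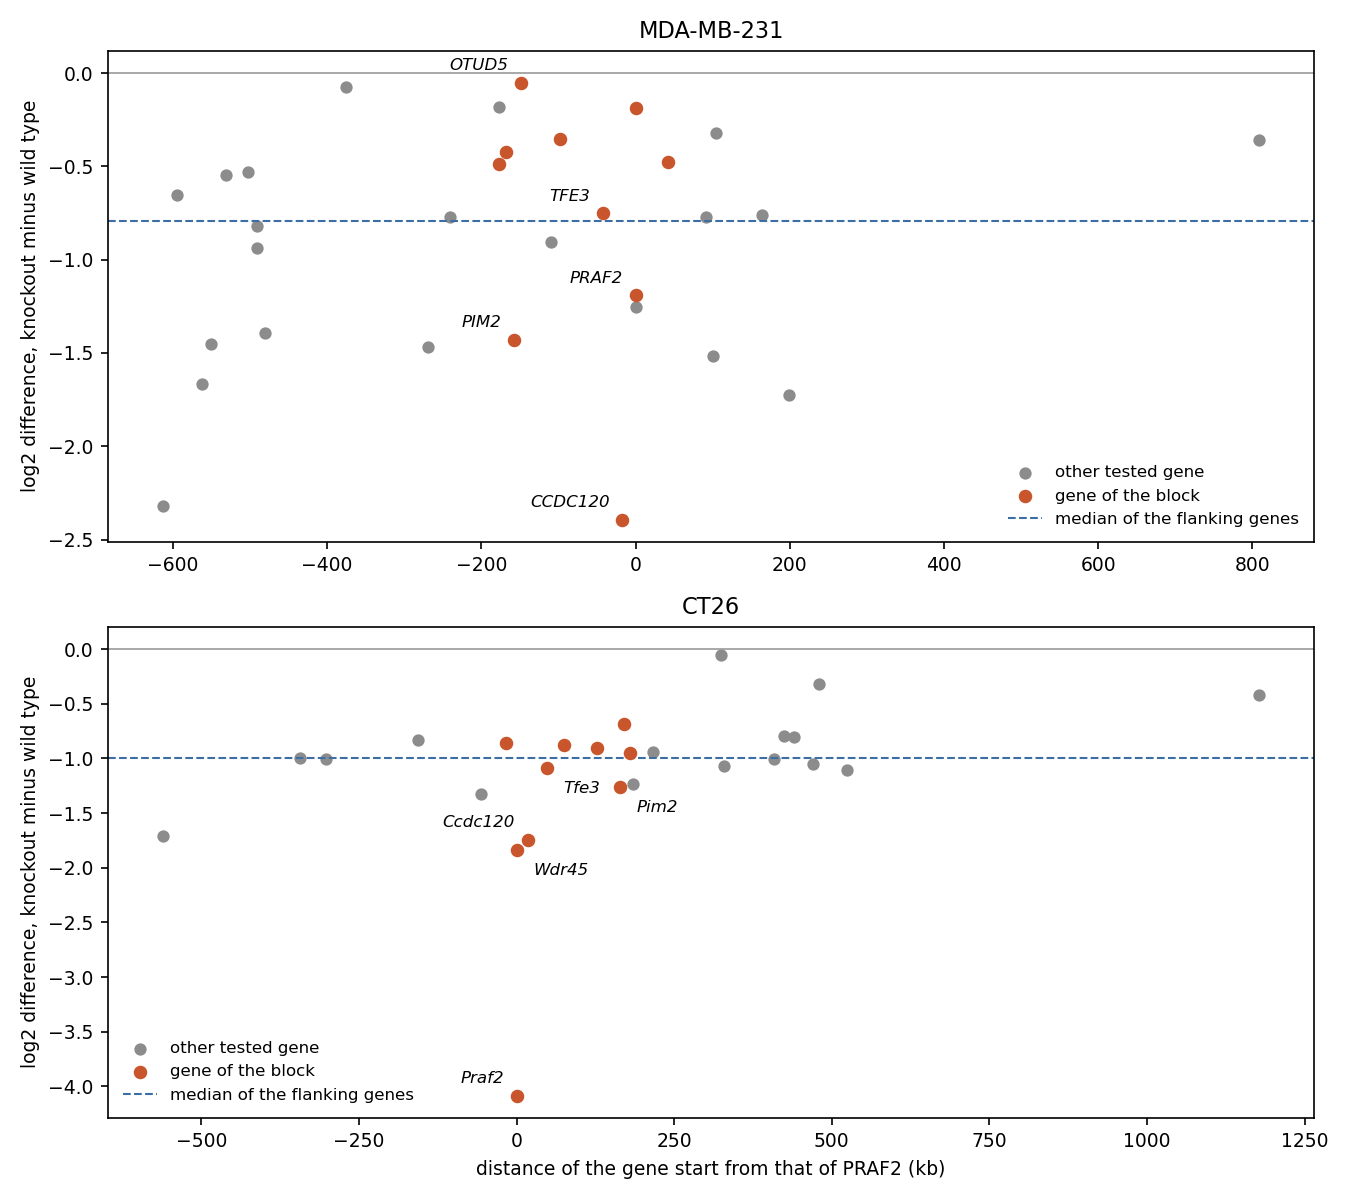
Log2 difference, knockout minus wild type on log2(FPKM + 1), of every tested gene within 1 Mb of the block, against the distance of its start from that of PRAF2 in kb. Orange points are the 10 block genes, grey points other genes, and the dashed line the median of the flanking genes (-0.80 in MDA-MB-231, -0.998 in CT26); Praf2 lies far below the line in CT26, at -4.08, while the place of CCDC120 in MDA-MB-231, at -2.39, is set by the pseudocount because its knockout is listed at 0.

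Most of the block in CT26 lay at the level of its surroundings. There 6 of the genes, Gpkow, Tfe3, Gripap1, Otud5, Slc35a2 and Pqbp1, were at 46.0% to 60.0% of wild type, beside a median of 48.4% over the flanking genes. Praf2 was lower than the flanking median by a further 3.08 on the log2 scale, Wdr45 by 0.84, Ccdc120 by 0.75 and Pim2 by 0.26. The pseudocount of 1 bears on these gaps: as gene minus flanking median they were -4.97, -0.88, -0.91 and -0.84 with 0.1, and -1.501, -0.78, -0.47 and 0.22 with 5, so Pim2 then lay above the flanking median. In MDA-MB-231 the flanking median was 50.6% of wild type. PIM2 and PRAF2 lay below the flanking median by 0.63 and 0.40 on the log2 scale (gene minus flanking median -0.33 and -0.43 with a pseudocount of 5), and CCDC120 lay below it by an amount that the pseudocount sets. The other 7 lay above it, OTUD5 by as much as 0.74 and TFE3 by 0.04. With a pseudocount of 5 TFE3 lay below it (gene minus flanking median -0.085). The flanking genes were themselves spread widely, from -2.32 to -0.08 in MDA-MB-231 and from -1.71 to -0.05 in CT26. In MDA-MB-231, EBP, HDAC6, PLP2, PORCN, PPP1R3F and SLC38A5 were lower than both PIM2 (-1.43) and PRAF2 (-1.19). In CT26, Plp2 (-1.32) and Clcn5 (-1.71) were lower than Pim2 (-1.26). Wdr45 (-1.84) and Ccdc120 (-1.75) lay just below Clcn5, and Praf2 (-4.08) far below it.

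Among the nearest neighbours, PLP2, a membrane proteolipid, fell from 635 ± 20.3 to 221 ± 12.8 FPKM in MDA-MB-231 (log2 difference -1.52, limma adjusted p = 2.68e-08) and from 241 ± 6.19 to 95.7 ± 2.54 FPKM in CT26 (-1.32, limma adjusted p = 7.87e-08). HDAC6, the tubulin deacetylase, fell to 35.6% of wild type in MDA-MB-231 and to 48.6% in CT26. WDR13 fell to 37.5% and 46.4%, and CCDC22, a part of the endosomal COMMD complex, to 55.1% and 53.3%. SUV39H1, a histone H3 lysine 9 methyltransferase, was the exception in MDA-MB-231 at 94.5% of wild type (limma adjusted p = 0.404), although it passed as lower after upper-quartile scaling (-0.28, limma adjusted p = 0.0112) and quantile normalization (-0.22, 0.0215). In CT26 it fell to 46.3%. The pseudogene Rpl22-ps1 was the exception in CT26. PCSK1N, AC115618.3, PRICKLE3 and PPP1R3F also fell in MDA-MB-231, to between 25.1% and 76.6% of wild type. Clcn5, 2010204K13Rik and Timm17b fell in CT26, to between 26.6% and 49.0%. MAGIX in MDA-MB-231 stood at 33.8% and Usp27x in CT26 at 31.2%. Both passed the filter through their wild type libraries alone, so their values are given as a description.

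Within the span of the block in the MDA-MB-231 table lay 3 further tested genes. KCND1, a potassium channel subunit between OTUD5 and GRIPAP1, went from 1.46 ± 0.355 to 0.313 ± 0.186 FPKM (log2 difference -0.91). It passed the filter through its wild type libraries alone, so its difference is given as a description. TIMM17B, of the mitochondrial import machinery, fell to 88.1% of wild type (limma adjusted p = 0.0117) in a locus it shares with PQBP1, which begins outside the annotated start of PQBP1. The small-RNA pseudogene RNU4-52P did not pass the test. In CT26 no gene between the members passed the filter.

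The rest of chromosome X did not share these values evenly. Outside the block and its flanks, 190 of 438 tested X genes fell and 111 rose in MDA-MB-231 (median log2 difference -0.17). These were 43.4% and 25.3%, beside 25.7% and 42.6% of all tested genes of that line (median 0.18). In CT26 105 of 311 fell and 51 rose (median -0.07, beside -0.06 over all genes of that line). The share that fell, 33.8%, was near the 33.5% of all genes, and 16.4% rose beside 22.3%. In CT26 the lower values ran on from the block along the proximal chromosome: of the tested genes that are not in the block, 17 of 19 fell in the first 10 Mb, 11 of 16 between 10 and 20 Mb and 14 of 16 between 20 and 30 Mb, with medians of -0.94, -0.65 and -0.95. Between 30 and 40 Mb, 8 of 20 fell and 3 rose, with a median of 0.01. In MDA-MB-231 the 10 Mb window that holds the block, from 40 to 50 Mb, had 46 of 65 other genes lower and 7 higher (median -0.71), and the window from 50 to 60 Mb had 12 of 30 lower and 6 higher (median -0.24). The far window from 0 to 10 Mb was also low, with 19 of 26 genes lower and 4 higher (median -0.60), and that from 140 to 150 Mb had a median of -0.45, so low values in this line were not limited to the surroundings of the block. Whether the DNA copy number or the chromatin of the region differed between the cells was not tested.

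**Figure D3:**
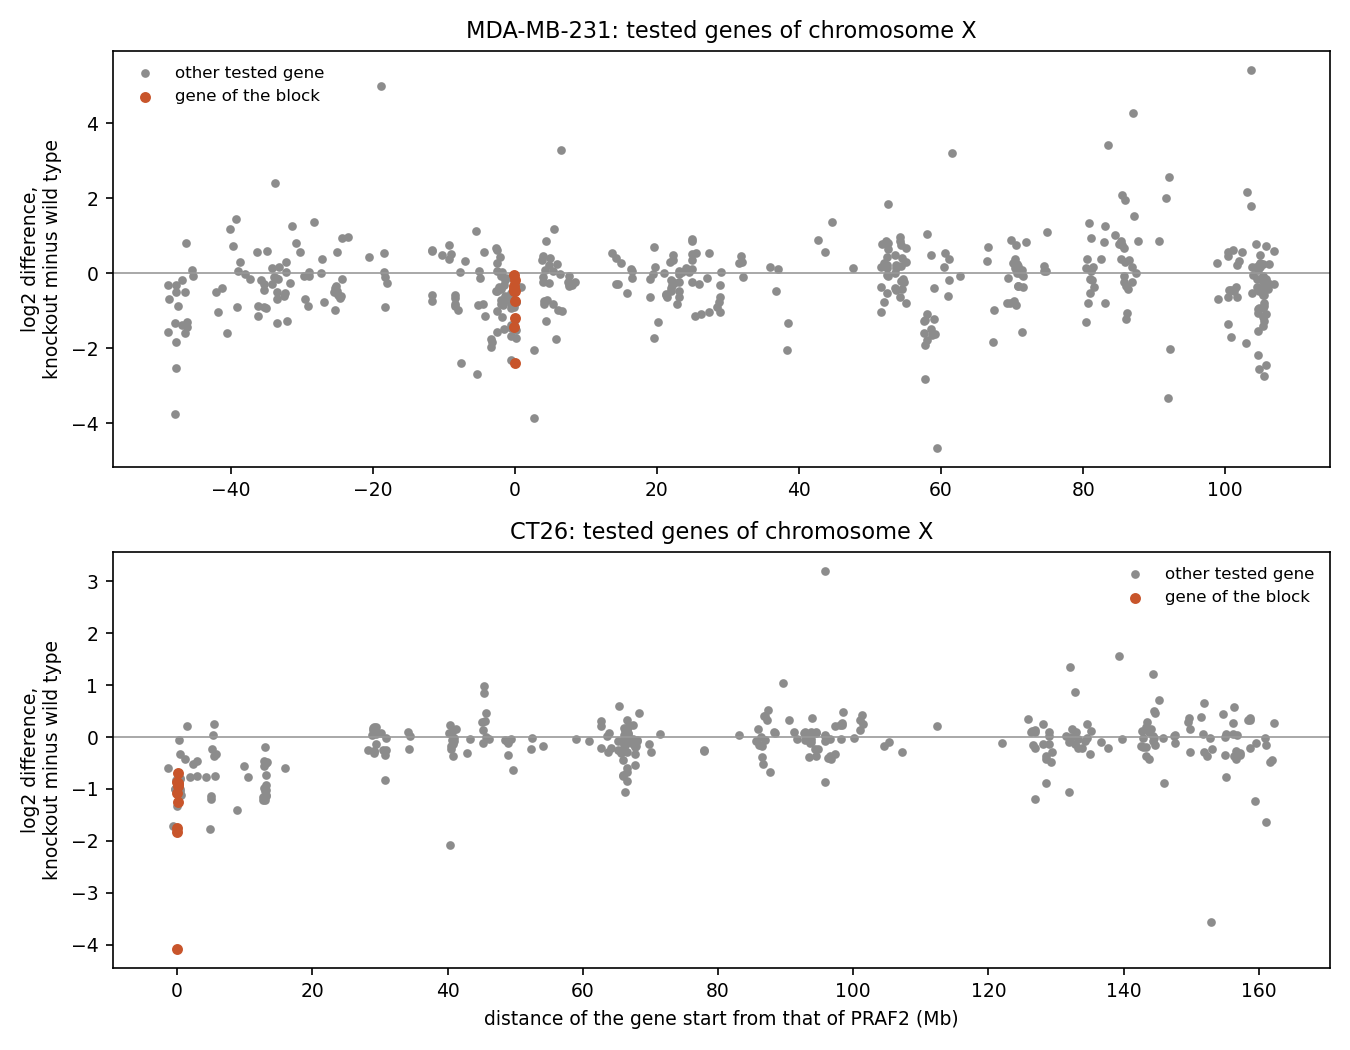
Log2 difference, knockout minus wild type on log2(FPKM + 1), of every tested gene on chromosome X, against the distance of its start from that of PRAF2 in Mb. Orange points are the 10 block genes and grey points all others; in CT26 the grey points near the block lie mostly below 0 and the later ones spread around 0, while in MDA-MB-231 higher and lower genes are mixed along most of the chromosome.

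Over the 8 libraries of a line, the genes whose profile lay closest to PRAF2, measured as the root mean squared distance of log2(FPKM + 1) values after taking off each gene's wild type mean, were FBXO44 (0.0742), ZNF175 (0.0754) and CAVIN3 (0.0757) in MDA-MB-231. In CT26 they were Clstn3 (0.205), Ppef1 (0.471) and Gm25777 (1.003). Clstn3 went from 27.6 ± 4.46 to 0.881 ± 0.0860 FPKM. For CCDC120 the nearest were ITGA5, CX3CL1 and TGIF1 in MDA-MB-231, of which CX3CL1 was also listed at 0 in all 4 knockout libraries, and Ccl5, Nlrc5 and Id3 in CT26. The likeness to CCDC120 in MDA-MB-231 depends on the pseudocount of 1, which sets the difference of that gene. ITGA5 went from 126 to 23.7 FPKM and TGIF1 from 62.4 to 11.4 FPKM, so neither was lost. For TFE3 they were TMEM165 (0.0294), KDM5C and RRP36 in MDA-MB-231 and Armc9 (0.0705), Gm43198 and Ermp1 in CT26. Of these 18 genes, KDM5C and Ppef1 lie on the X chromosome. With the wild type mean taken off, the distance largely reflects how alike the knockout differences are. The block was chosen on that same difference, so these genes are given as a description and not as a shared regulation.

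The relatives of the block genes on other chromosomes did not move as one. Among the MiT/TFE partners of TFE3, TFEB fell in MDA-MB-231 from 8.05 ± 1.25 to 0.834 ± 0.394 FPKM (log2 difference -2.32, limma adjusted p = 2.81e-06), while MITF rose from 3.67 ± 0.572 to 29.6 ± 2.17 FPKM (2.72, limma adjusted p = 7.84e-08). In CT26 Mitf rose from 1.57 ± 0.357 to 2.83 ± 0.375 FPKM (limma adjusted p = 0.00385), and Tfeb, at 16.7 ± 1.81 and 14.2 ± 1.90 FPKM, did not pass the test (limma adjusted p = 0.0998). TFEC was below the filter in both lines. TFE3 was thus the most abundant member of its family per length in both wild types, and in the MDA-MB-231 knockout MITF and TFE3 stood side by side at 29.6 and 27.8 FPKM.

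RABAC1, a relative of PRAF2, fell to 49.8% of wild type in MDA-MB-231 (95.1 ± 4.41 to 47.3 ± 1.77 FPKM, limma adjusted p = 3.41e-07) and did not pass the test in CT26 (limma adjusted p = 0.275), where it passed as higher after upper-quartile scaling (0.12) and quantile normalization (0.10). ARL6IP5, of the same family, fell in MDA-MB-231 (log2 difference -0.46) and rose in CT26 (0.19). Of the kinases related to PIM2, PIM1 and PIM3 rose in both lines, by 0.35 and 0.16 in MDA-MB-231 and by 0.28 and 0.60 in CT26, but in MDA-MB-231 neither rise passed the test after upper-quartile scaling or quantile normalization, and PIM3 then turned to -0.0478 and -0.0249. Of the WIPI proteins next to WDR45, WIPI1 and WIPI2 fell in MDA-MB-231 (-0.28 and -0.30) and Wipi2 and Wdr45b in CT26 (-0.23 and -0.20), with WDR45B in MDA-MB-231 and Wipi1 in CT26 not past the test; Wdr45b was not past it after either other scaling, and WIPI1 and WIPI2 not without some single libraries. OTUD1 was lower in MDA-MB-231 (-2.33), where it passed the filter through its wild type libraries alone, and rose in CT26 (0.75). OTUD6B rose in MDA-MB-231 (0.95) and fell in CT26 (-0.27). OTUD4 rose in CT26 (0.58) and did not pass the test in MDA-MB-231. There it passed as lower after upper-quartile scaling (-0.19, limma adjusted p = 0.0316). Among the nucleotide sugar transporters next to SLC35A2, SLC35A1 rose (0.80) and SLC35A3 fell (-0.41) in MDA-MB-231, and neither passed the test in CT26. The call of SLC35A3 was lost when any of 6 single libraries was left out.
Genes listed as TFE3 targets, which serve lysosomes and autophagy, were more often lower than higher in both lines. The list does not separate TFE3 from its MiT/TFE partners, a family that switches on lysosomal and autophagy genes. TFEB stood at 10.4% of wild type and MITF at 807% in MDA-MB-231, and the part of each factor was not tested. In MDA-MB-231 21 of the 37 tested fell, 5 rose and 11 did not pass the test, with a median log2 difference of -0.32 beside 0.18 over all genes. These were 56.8% and 13.5% of the list, beside 25.7% and 42.6% of all tested genes. In CT26 29 of 36 fell, 1 rose and 6 did not pass, with a median of -0.50 beside -0.06. These were 80.6% and 2.78% of the list, beside 33.5% and 22.3% of all tested genes. CTSD, the lysosomal protease cathepsin D, fell in MDA-MB-231 from 1798 to 244 FPKM (log2 difference -2.87, limma adjusted p = 2.40e-10), and NEU1, CTSB and LAMP2 fell to 26.3%, 27.0% and 33.0% of wild type. In CT26 the smallest p-values were those of Psap, Lamp2, Gpnmb and Sqstm1, which fell to 58.4%, 55.7%, 44.8% and 48.0%. The 5 that rose in MDA-MB-231 were ATP6V1B2, FNIP2, UVRAG, MAP1LC3B and ATP6V1D, and in CT26 the 1 was Mcoln1, whose call was lost with the replicate block and without wild type replicate 2 or 4 or knockout replicate 1, 2 or 4; these 6 are named after their values were seen. The lysosomal genes LAMP2, GLA and ATP6AP1 lie on the X chromosome themselves.

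**Figure D4:**
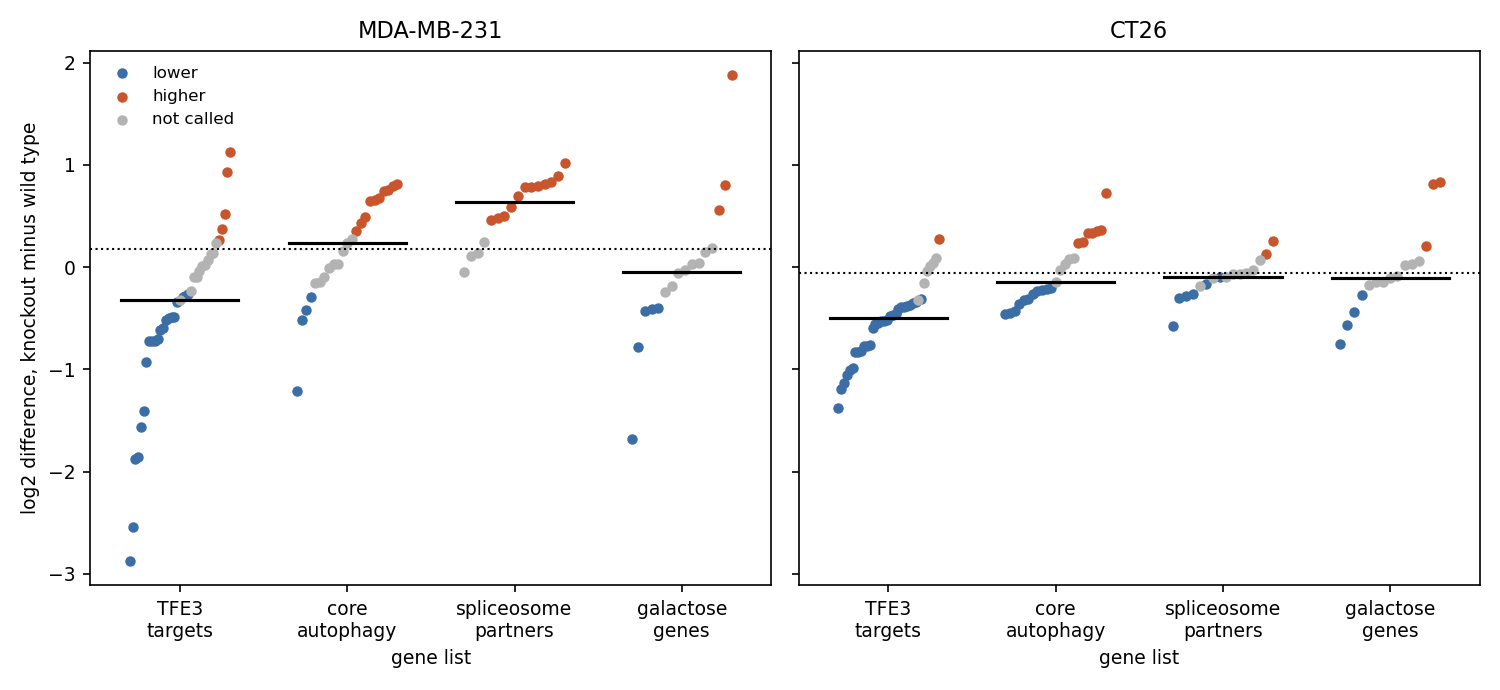
Log2 difference, knockout minus wild type on log2(FPKM + 1), of the tested genes of each list in MDA-MB-231 and CT26. Each point is 1 gene and the bars mark list medians; the TFE3 target genes have medians of -0.32 and -0.50, while the core autophagy genes lie on both sides of 0.

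The core autophagy genes, the machinery with which WDR45 works, were mixed. In MDA-MB-231 10 of 23 rose and 4 fell (median 0.24, beside 0.18 over all genes), where 42.6% of all tested genes rose and 25.7% fell, so the share that rose, 43.5%, was near that of all genes. Examples were ATG3 and ATG7, which rose by 0.67 and 0.80 on the log2 scale, and ATG4A and ATG2A, which fell by 1.21 and 0.52. In CT26 7 of 23 rose and 11 fell (median -0.15), or 30.4% and 47.8% beside 22.3% and 33.5% of all genes, with Atg2b higher by 0.73 and Atg3, Atg16l1 and Atg4d lower by 0.46, 0.43 and 0.45.

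The spliceosome partners of PQBP1 and GPKOW went with neither gene in MDA-MB-231, where 12 of 16 rose and 0 fell (median 0.64), beside 42.6% and 25.7% of all tested genes and a median of 0.18. After upper-quartile scaling or quantile normalization 1 fell. PRPF6, TXNL4A, PRPF4 and PLRG1 rose to 177%, 178%, 175% and 162% of wild type. In CT26 2 rose and 6 fell (median -0.10, beside -0.06), or 12.5% and 37.5% beside 22.3% and 33.5% of all genes, among them Snrnp40, Cwc22, Prpf4 and Txnl4a at 66.3% to 83.0% of wild type. Of the genes of UDP-galactose supply and galactosylation, the pathway that SLC35A2 feeds, 3 of 16 rose and 5 fell in MDA-MB-231. In CT26 3 of 15 rose and 4 fell. The share of the list that fell was 31.2% in the human line and 26.7% in the mouse line, beside 25.7% and 33.5% of all genes. The share that rose was 18.8% and 20%, beside 42.6% and 22.3% of all genes. The 5 that fell in MDA-MB-231 became 8 after upper-quartile scaling and 9 after quantile normalization, and 3 without wild type replicate 1, knockout replicate 1 or knockout replicate 3. B4GALT1, a galactosyltransferase, fell in both lines, to 29.8% and 71.4% of wild type, B4GALT6 rose in both, to 421% and 207%, and B4GALT5 rose to 149% in MDA-MB-231 and fell to 58.4% in CT26.

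Facts of the whole data set bear on these values. The targeted gene, CD274, was at 12.2 ± 0.670 FPKM in the MDA-MB-231 wild type and 10.6 ± 1.91 FPKM in the knockout (limma adjusted p = 0.166), so RNA level does not check the label there. In CT26 Cd274 was at 1.41 ± 0.127 FPKM in the wild type and 0.526 ± 0.0552 FPKM in the knockout. It passed the filter through its wild type libraries alone, so this is given as a description. With wild type replicate 1 of each line set to 1, depth ran from 0.941 to 1.21 (wild type) and 0.509 to 0.779 (knockout) for MDA-MB-231, and for CT26 from 0.799 to 1.14 and from 0.926 to 2.49. Of 12 breast markers, ESR1, PGR, KRT5 and KRT14 stayed below 1 FPKM in all MDA-MB-231 libraries, and VIM, CD44, KRT8 and KRT18 were high. Of the 8 tested, 7 fell in the knockout, where 25.7% of all tested genes fell. They were CD44 at 29.4%, EPCAM at 43.4%, KRT8 at 53.9%, FN1 at 58.2%, ERBB2 at 72.3%, KRT18 at 81.6% and CDH1 at 7.50% of wild type. CDH1 was low and scattered in the wild type, at 1.53 to 6.60 FPKM. VIM rose to 229%. Of 11 colon epithelial markers, 6 stayed below 1 FPKM in all CT26 libraries (Cdh1, Cdx1, Epcam, Krt8, Lgr5 and Vil1, with Epcam listed at 0), so defining epithelial markers were absent or nearly so, while Krt18, Vim and Cd44 were present. Krt20 rose from 1.78 ± 0.0650 to 10.4 ± 0.730 FPKM in the CT26 knockout, and Cdx2, below the filter, had wild type levels of 0.0258 to 0.0630 FPKM and knockout levels of 0.876 to 1.05. In MDA-MB-231 leukocyte markers summed to 6.58 to 9.46 FPKM (wild type) and 0.629 to 1.72 (knockout), with CD3E at 0. In CT26 they summed to 16.03 to 19.0 and 49.6 to 56.5, nearly all of it Cd14, with Cd3e and Csf1r at 0 and Ptprc at no more than 0.0130. Fibroblast and endothelial markers summed to 10.7 to 13.3 and 3.35 to 4.84 FPKM in the human line and to 21.3 to 24.04 and 13.2 to 16.8 in CT26, mostly COL1A1. The part of these in the values of the block was not tested.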

How the data were processed

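Total RNA of 16 libraries was used, 4 wild type and 4 PD-L1 knockout libraries each of MDA-MB-231 and CT26. Per the submitters' processing notes, bcl2fastq 2.18, STAR 2.5.4a, Cufflinks 2.2.1 and Cuffdiff were used, with builds hg38 and mm10. No source used here states the annotation, whether strand was used, or how Cuffdiff was set. The deposited values are FPKM per gene and library, normalized by the authors in a separate table for each line. The authors' group means, test statistics, p-values and q-values were not used. Starts in the deposited locus column count from 0, and 1 was added. Genes that the authors' status marks as holding too much data (13 in MDA-MB-231, 210 in CT26) were listed at 0 in every library and left out.

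Values were analysed as log2(FPKM + 1), so differences understate the change of low genes. A gene was tested where 4 or more of the 8 libraries reached 1 FPKM, with limma 3.58.1 in R 4.3.3, with a mean-variance trend, group as the only term, two-sided, and Benjamini-Hochberg adjustment over all genes tested (threshold 0.05). A gene with every knockout library below 1 FPKM passed this filter through its wild type libraries alone, which favours a call as lower. The fit was also run on simulated independent, normally distributed values. Those cannot show how it behaves with technical replicates, unequal depth or values near 0. Relative depth came from ratios of FPKM values between libraries over genes below 0.5 FPKM. The rest used Python 3.11.15 with matplotlib 3.10.9, numpy 2.4.6 and pandas 2.3.3. Promoters came from RefSeq and gene spans from GENCODE 29.

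The block genes and all gene lists were chosen with earlier results of these data known. The genes named are the 10 of the block, the 5 tested genes nearest to it on each side, every tested gene between its members, all tested relatives of its members, up to 4 genes per other list with the smallest p, the 3 genes nearest in profile to PRAF2, CCDC120 and TFE3, and CD274. Alternatives were upper-quartile scaling, quantile normalization, pseudocounts of 0.1 and 5, no filter, a filter of 5 FPKM, the replicate number as a block, and leaving out each library. Lists are described by counts and medians.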

Additional observations from a re-analysis of the deposited data

Results flagged for a closer look

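In 3 groups of block genes, 1 library lay far from the other 3. Wild type replicate 1 of MDA-MB-231 was the lowest for GRIPAP1, at 23.3 FPKM against 30.1 to 31.3. Wild type replicate 4 of that line was the lowest for WDR45, at 77.1 against 106 to 109. Knockout replicate 2 was the highest for PQBP1, at 85.5 against 68.4 to 71.2. Of 207 groups of 4 libraries looked at, 13 had such a library, and chance gives about 1 in 20.

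The other 10 concern genes outside the block. In MDA-MB-231, wild type replicate 2 was the lowest for CTSD (1731 FPKM), PRICKLE3 (5.25) and PRPF6 (37.0), wild type replicate 1 the highest for PIM1 (19.4) and knockout replicate 2 the highest for ARL6IP5 (50.8). In CT26, wild type replicate 2 was the highest for Clcn5 (18.3 FPKM), wild type replicate 4 the lowest for Otud6b (20.1), knockout replicate 4 the highest for Otud6b (17.8) and the lowest for Hdac6 (5.96), and knockout replicate 2 the highest for B4galt1 (9.15).

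Of 38 named genes compared in both lines, 7 had non-overlapping groups that moved in opposite directions, none of them in the block. Groups without overlap were common, in 9057 of 14450 tested genes of MDA-MB-231 and 5836 of 11342 of CT26. The share of all genes with such opposite moves is not given. The block was chosen on lower knockout values, and genes of several lists were named by smallest p. Nothing is therefore read from the count of 7 or from its lack of block genes. In MDA-MB-231 and CT26 the log2 differences were -0.46 and 0.19 for ARL6IP5, 0.67 and -0.46 for ATG3, 0.56 and -0.76 for B4GALT5, -2.33 and 0.75 for OTUD1, 0.95 and -0.27 for OTUD6B, 0.79 and -0.28 for PRPF4, and 0.83 and -0.58 for TXNL4A. The difference between the lines was not tested.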

How the results depend on the processing

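Each of the 10 block genes kept a difference below 0 under all 13 settings per line that were run for it, which use upper-quartile scaling, quantile normalization, other pseudocounts and leaving out each library. The block was chosen on these same libraries, so a kept sign is no independent support. The smallest difference was that of OTUD5 in MDA-MB-231, at -0.0013 without knockout replicate 2 and -0.26 after upper-quartile scaling. The pseudocount set the size for genes near 0: CCDC120 in MDA-MB-231 ranged from -5.44 to -0.89 and Praf2 in CT26 from -6.01 to -2.25. Under all alternatives run, the counts of changed genes in lists, flanks, rest of the X chromosome and all genes stayed within 1.5 times the main count. Split by direction, 17 of 360 such counts did not: they concern the galactosylation genes and spliceosome partners that fell in MDA-MB-231, the 1 TFE3 target that rose in CT26, and 1 flanking gene per line that rose when no filter was used. Over all genes, 6149 rose and 3711 fell in MDA-MB-231, but 4736 and 4851 after upper-quartile scaling, and in CT26 2534 and 3794 against 3316 and 2840. That scaling moved the median of all genes from 0.18 to -0.01 in MDA-MB-231. On the rest of the X chromosome of MDA-MB-231 it gave 233 lower and 79 higher genes. The direction turned in MDA-MB-231 for PIM3, to -0.0478 after upper-quartile scaling and -0.0249 after quantile normalization, and for OTUD4, to -0.19 after upper-quartile scaling, where it passed the test. The cause was not tested. SUV39H1 passed the test after either scaling (limma adjusted p = 0.0112 and 0.0215), and so did Rabac1 in CT26 (0.12 and 0.10), while PIM1 and Wdr45b did not. In MDA-MB-231 the calls of SLC35A3, WIPI1, WIPI2 and PIM3 were lost without any of 6, 6, 5 and 4 single libraries, with limma adjusted p up to 0.103, 0.118, 0.0795 and 0.0685. In MDA-MB-231 libraries with the same number did not deviate together (correlations -0.037 to 0.004). In CT26 the correlations were weak (0.027 to 0.078), but each library correlated best with its own number. Whether the numbers pair the CT26 libraries was therefore not settled, and group stayed the only term of the main fit. With the replicate block, 6026 genes rose and 3622 fell in MDA-MB-231 and 2391 and 3641 in CT26, and SLC35A3, WIPI2 and PIM3 no longer passed. Depth limits the values near 0, mainly in the shallower MDA-MB-231 knockout.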
